A study of Mus musculus with 12 samples.

Results

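Mouse embryonic fibroblasts treated with AMN107 and no interferon (2 arrays) were compared with the same kind of cells given DMSO (2 arrays), gene by gene, on Affymetrix expression arrays. AMN107 is the laboratory code of nilotinib, a small molecule that binds the inactive form of the ABL tyrosine kinase and also acts on the KIT, PDGF and DDR receptor kinases, and DMSO is the solvent in which it is dissolved. The 4 arrays belong to a set of 12, 2 each of AMN107, AMN107-IFNa, AMN107-IFNg, DMSO, IFNa and IFNg, where IFNa and IFNg stand for 6 h with interferon alpha or gamma. The labels give neither the strain and passage of the fibroblasts nor the dose and duration of AMN107, and name the 2 arrays of a group as biological replicates without saying that they came from separate cultures, so each p-value below measures the spread between these samples. Of 18193 genes with a probe set that matches only them, 12192 were bright enough to test, which means a signal above the median of the array on at least 2 of the 12 arrays. A second pair of groups, AMN107-IFNg (2 arrays) and IFNg (2 arrays), is set beside the first because it holds the same drug contrast in other samples.

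ABL kinases relay signals from growth factor receptors and adhesion sites to the cytoskeleton, and fibroblasts carry PDGF receptors, whose kinase nilotinib also blocks. Interferons act through receptors coupled to the kinases JAK and TYK and through STAT and IRF transcription factors, which switch on many antiviral genes, and unstimulated fibroblasts keep a low basal output of the same genes. Sterol synthesis is set by SREBP2, a membrane-bound factor that is released when sterols in the endoplasmic reticulum run low, while ATF4 is the factor made when amino acids are short or the endoplasmic reticulum is under stress, and TFEB and TFE3 drive the genes of lysosomes.

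The duplicates were close to each other, with correlations of log2 signals across genes of 0.998 in AMN107 cells and 0.997 in DMSO cells. The AMN107 and DMSO arrays also differed in control measures. The spiked-in LysX control read 38.9 and 37.6 on the AMN107 arrays, against 59.6 and 66.2 on the DMSO arrays, and the ratio of the 5′ to the 3′ probe set of beta-actin, a measure of RNA and labelling length, was 0.817 and 0.819 on the AMN107 arrays, against 0.676 and 0.712 on the DMSO arrays. The arrays with IFNg and no drug read 40.6 and 36.1 for LysX and 0.791 and 0.795 for the actin ratio, nearer to the AMN107 than to the DMSO arrays. Their GAPDH 5′ to 3′ ratios, 1.09 and 1.10, were nearer to the DMSO arrays (1.09 and 1.07) than to the AMN107 arrays (1.16 and 1.16). IFNa array 1 read 81.1 for LysX and 0.696 for the actin ratio, nearer to the DMSO than to the AMN107 arrays. IFNa array 2 had a GAPDH 5′ to 3′ ratio of 0.0252, against 1.07 to 1.16 on the other arrays. Their part in the differences below was not tested.

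Between AMN107 and DMSO cells 4237 of the 12192 genes differed, by limma's moderated test with a Benjamini-Hochberg adjusted p under 0.05. Of these, 2529 rose, or were higher with AMN107 (20.7% of the genes tested), and 1708 fell, or were lower (14% of the genes tested). Most of these differences were small, and 300 genes differed at least 2-fold, 264 of them higher (2.17% of the genes tested) and 36 lower (0.295% of the genes tested). Of these, 29 rises and 2 falls reached 4-fold. On all 300 genes the 2 AMN107 arrays lay on one side of the 2 DMSO arrays with no overlap. These genes were chosen by the test and by size, so little overlap could occur. Its absence adds no support, here or for the genes past the test named below. A fold change here is a difference of log2(signal + 8.66), which understates the change of dim genes, and for 18 of the 264 rises both DMSO signals were under the medians of their arrays. The split into rises and falls among the small differences depends on how the arrays are scaled: the median gene differed by 0.02 as deposited and by -0.16 with each array centred on the median of the probe sets tested, where 1510 genes rose and 3923 fell, 156 and 81 of them at least 2-fold. With quantile normalization 1682 rose and 2633 fell, with 1 shared trimmed mean 1808 rose and 2972 fell, and with centring over all probe sets 2991 rose and 1208 fell. The 300 genes past 2-fold as deposited were all past the test in the same direction under each of these 4 scalings. Of the genes named below, 26, with differences of at most 0.66 in size, lost their call under at least 1 of the 4: Abl1, B2m, Canx, Cbl, Ccl5, Ccnd1, Chac1, Col1a1, Ctsd, Ddit4, Dhdds, Fn1, Hspa5, Insig2, Mars1, Myd88, Mylip, Nqo2, S100a13, S100a6, Shmt2, Stat3, Stat5b, Stat6, Tfe3 and Tm7sf2. The count of all changes rests on single arrays: it was 2367 and 2067 without AMN107 array 1 or 2, 1969 and 2705 without DMSO array 1 or 2 and 6714 without IFNa array 2, which enters only the estimate of the spread, while the count past 2-fold stayed between 266 and 355. When the genes were split into 4 equal groups by signal, the dimmest group had a median difference of -0.15 and the third of the 4 had one of 0.15.

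**Figure D1:**
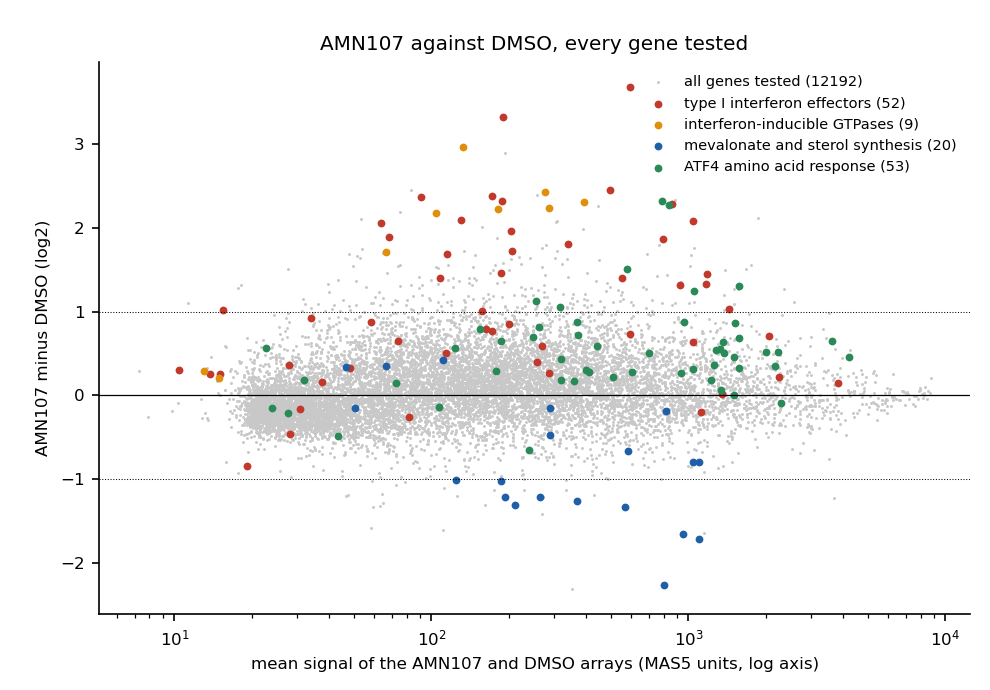
Each point is 1 of the 12192 genes, with its mean signal on the AMN107 and DMSO arrays (MAS5 units, log axis) and the log2 difference AMN107 minus DMSO. Of the type I effectors 25 and of the GTPases 7 lie above the upper dotted line at 2-fold, the sterol synthesis genes mostly below 0 and down to -2.27 for Idi1, and the ATF4 genes mostly between 0 and 1.

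Interferon-inducible genes were among the tallest rises, with no interferon added. Of the 52 tested type I interferon effectors, antiviral genes that IFNa and IFNb induce in most cells, 37 rose and 2 fell, with a median of 0.90, against 0.02 over all genes tested. Of the 9 tested interferon-inducible GTPases, proteins that attack the vacuoles of intracellular parasites, 7 rose and 2 did not pass the test, with a median of 2.22. Both medians kept their sign under the other 4 scalings, with lowest values of 0.72 for the effectors and 2.05 for the GTPases.

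Usp18, the protease that strips ISG15 from proteins and dampens the type I receptor, had signals of 986 and 1232 in AMN107 cells, against 68.6 and 88.5 in DMSO cells. Ifit3, a partner of IFIT1 in binding foreign RNA, had 297 and 411 in AMN107 cells, against 30.1 and 24.5 in DMSO cells. Both AMN107 arrays lay far above both DMSO arrays for the pair, with log2 differences of 3.68 (SE 0.23, adjusted p = 3.77e-06) and 3.32 (SE 0.15, adjusted p = 4.9e-07). Ifit1 itself, which grips RNA without the cap methylation of the host, read 1161 and 1347 in AMN107 cells, against 328 and 346 in DMSO cells, a difference of 1.86 (SE 0.10). Rsad2, or viperin, which makes a chain-ending nucleotide that stalls viral polymerases, read 1424 and 1958 in AMN107 cells, against 421 and 356 in DMSO cells. Its neighbour Cmpk2, a mitochondrial nucleotide kinase, read 228 and 413 in AMN107 cells, against 62.1 and 47.9 in DMSO cells, and here the 2 AMN107 arrays stood apart from each other by more than for the genes above, although both were over 3 times either DMSO array. The 2 other probe sets of Rsad2 gave differences of 3.48 and 2.55, above the 2.08 of the probe set used. The other probe set of Cmpk2 gave 1.01, below the 2.32 of the probe set used.

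The poly-ADP-ribosyl transferases rose with them: Parp12 had 742 and 951 in AMN107 cells, against 149 and 143 in DMSO cells (log2 difference 2.46, SE 0.16), and Parp14 and Parp9 rose by 2.10 and 1.81, the other probe set of Parp14 giving 0.55. Oasl2, of the family that senses double-stranded RNA, read 272 and 318 in AMN107 cells, against 48.6 and 50.4 in DMSO cells, and its relatives Oas1a, Oas3 and Oasl1 rose by 1.33, 1.68 and 1.32. The ubiquitin ligase Herc6, which attaches ISG15 in mice, read 139.8 and 178 in AMN107 cells, against 22.9 and 24.4 in DMSO cells, and 3 more of its probe sets gave 0.47, 1.52 and 0.75. Xaf1, an antagonist of the apoptosis inhibitor XIAP, read 1319 and 1550.4 in AMN107 cells, against 287 and 286 in DMSO cells. Neither AMN107 array of any of these genes overlapped the DMSO arrays. Eif2ak2, the kinase PKR that stops translation on double-stranded RNA, Bst2, which tethers budding virions, and the tripartite-motif proteins Trim21 and Trim30a rose by 1.97, 1.40, 1.40 and 2.05.

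Not every antiviral gene took part. The membrane proteins Ifitm1, Ifitm2 and Ifitm3, which block viral fusion, differed by -0.17, 0.01 and 0.15 and did not pass the test (adjusted p = 0.277, 0.953 and 0.142). Mx1, a dynamin-like restriction factor, had dim signals of 16.3 and 17.9 in AMN107 cells, against 11.4 and 14.5 in DMSO cells, and Ifi44l had 11.7 and 13.2 in AMN107 cells, against 8.90 and 7.92 in DMSO cells, and neither passed the test, with adjusted p of 0.234 and 0.102. The 2 members that fell were both dim: Ifi27l2a read 9.61 and 13.2 in AMN107 cells, against 26.5 and 27.7 in DMSO cells (difference -0.84, adjusted p = 0.00525) and Epsti1 read 24.9 and 19.9 in AMN107 cells, against 34.9 and 32.9 in DMSO cells (difference -0.46, adjusted p = 0.0173).

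Among the GTPases, Gbp2, a guanylate-binding protein that coats ruptured vacuoles, had 197 and 289 in AMN107 cells, against 22.5 and 23.6 in DMSO cells, a log2 difference of 2.96 (SE 0.14, adjusted p = 7.66e-07). Igtp, an immunity-related GTPase also called Irgm3, had 426 and 524 in AMN107 cells, against 83.3 and 77.95 in DMSO cells, and Irgm1 had 457 and 496 in AMN107 cells, against 103 and 86.5 in DMSO cells. The arrays of the 2 groups did not overlap, and the differences were 2.43 (SE 0.10) and 2.23 (SE 0.19). Gbp3, Gbp7, Irgm2 and Ifi47 rose by 2.31, 2.22, 2.17 and 1.71. Gbp6 and Iigp1, the 2 members that did not pass, lay under the array medians in both groups, at 16.6 and 16.5 in AMN107 cells, against 13.8 and 12.6 in DMSO cells for Gbp6 and 15.5 and 14.8 in AMN107 cells, against 12.02 and 9.78 in DMSO cells for Iigp1. With IFNg, Iigp1 read 1485 and 1466 in AMN107-IFNg cells, against 2712 and 2670.1 in IFNg cells, so the probe set responds in these cells, and a basal level was hardly seen either with AMN107 or with DMSO.

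The promoters of 3 genes of this group are printed because each holds the core of the interferon-stimulated response element (GAAANNGAA). Each line gives 100 bases near the gene start in RefSeq's GRCm38.p6 assembly, 5′ to 3′ on the gene's strand, with the matches to the core on either strand in capitals: Ifit3 (chr19:34583381-34583480), Gbp2 (chr3:142620559-142620658) and Igtp (chr11:58199476-58199575), all on the plus strand of the assembly.
Ifit3: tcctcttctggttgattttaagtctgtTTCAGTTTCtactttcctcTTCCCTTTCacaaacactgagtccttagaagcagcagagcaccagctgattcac
Gbp2: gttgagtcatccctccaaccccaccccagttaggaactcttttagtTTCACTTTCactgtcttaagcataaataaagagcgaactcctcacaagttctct
Igtp: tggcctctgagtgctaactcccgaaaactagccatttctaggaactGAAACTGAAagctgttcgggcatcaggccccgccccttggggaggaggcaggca
The windows searched run from 250 bases before to 50 bases after the start. Of the 37 type I effectors and GTPases past the test that have a window there, 19 held the core on either strand (51.4%), against 8.18% of the 9859 tested genes with a window and 8.56% of all 32851 windows. Among all 48 tested members with a window, past the test or not, the share was 47.9%. Those with the core included Rsad2, Eif2ak2, Ifit1, Oas1a, Trim21 and Bst2 beside the 3 genes shown. A match describes the letters and shows no binding.

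Of the receptors and factors upstream of these genes some rose and some fell. Of 30 tested members of the receptor, JAK-STAT and IRF list, 9 rose and 6 fell, and with median centring 7 rose and 11 fell. Over all genes tested 20.7% rose and 14% fell as deposited, so these counts are not read as a trait of the list. The median of the list was -0.05, and it turns to 0.01 with centring over all probe sets. Irf7, the factor that amplifies type I interferon, had 405 and 523 in AMN107 cells, against 136 and 149 in DMSO cells. It rose without overlap, by 1.63 (SE 0.24). The IFNg receptor chain Ifngr2 rose by 0.90, while another probe set of Ifngr2 differed by -0.15. Irf1, Irf3 and Ifngr1 differed by 0.11, 0.26 and -0.08 and did not pass (adjusted p = 0.48, 0.0645 and 0.583). Of the feedback inhibitors, Socs1 rose with signals of 74.6 and 72.5 in AMN107 cells, against 33.03 and 43.9 in DMSO cells, while Socs3, which restrains cytokines of the IL-6 family, fell with 55.3 and 56.7 in AMN107 cells, against 98.8 and 99.9 in DMSO cells. Stat3, Stat5b, Stat6, Cish and the phosphatase Ptpn6 also fell, with differences between -0.28 for Stat6 and -0.52 for Ptpn6.

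Sensors and antigen presentation rose in part. Of 15 tested RNA and DNA sensors 7 rose and 1, the adaptor Myd88, fell (-0.27). Ddx58, or RIG-I, the sensor of viral RNA ends, had 269 and 321 in AMN107 cells, against 139 and 134 in DMSO cells. Mndal, of the DNA-binding p200 family, had 372 and 507 in AMN107 cells, against 67.8 and 84.6 in DMSO cells, and Ifih1, or MDA5, had 787 and 876 in AMN107 cells, against 626 and 621 in DMSO cells. No arrays overlapped, and the differences were 1.06 (SE 0.15), 2.39 (SE 0.15) and 0.41 (SE 0.08). The DNA sensor Cgas, its adaptor Sting1 and Tlr4 differed by 0.10, 0.06 and 0.07 and did not pass (adjusted p = 0.388, 0.851 and 0.766). Of 16 tested genes of MHC class I presentation 10 rose and 1 fell: the heavy chains H2-K1 and H2-D1 had 3456 and 3566 in AMN107 cells, against 1551 and 1691 in DMSO cells for the first and 4441 and 4912 in AMN107 cells, against 2301 and 2429 in DMSO cells for the second, and the peptide pump Tap1, the light chain B2m and the immunoproteasome subunit Psmb9 rose by 0.63, 0.21 and 0.99. The member that fell was the chaperone Canx (-0.36), and Tap2, Tapbp and Psme1 did not pass (adjusted p = 0.475, 0.61 and 0.843). The heavy chain probe sets can also catch RNA of closely related class I genes, so H2-K1 and H2-D1 are less certain than the rest.

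The probe sets of the interferons themselves were dim. Ifnb1 read 13.6 and 12.3 in AMN107 cells, against 12.1 and 11.02 in DMSO cells, under the array medians of 21.3 to 22.8, and was too dim to test. The probe sets of Ifna1 and Ifna4 were tested and did not pass (-0.24 and 0.09, adjusted p = 0.0579 and 0.577), those of Ifna2, Ifna5, Ifna9 and Ifna11 were too dim, and Ifng read 3.27 and 2.64 in AMN107 cells, against 2.52 and 2.73 in DMSO cells. For the probe sets too dim to test, signals this low do not show that the RNA was absent. Detection calls were not used here. Among chemokines and cytokines 8 of 27 rose and 2 fell, with a median of 0.06 that turns negative with median centring and 1 shared trimmed mean. Il6 had 24.9 and 32.8 in AMN107 cells, against 5.95 and 7.33 in DMSO cells, both DMSO arrays being under the array medians. Cxcl10, which draws T cells, had 1617 and 1935 in AMN107 cells, against 967 and 947 in DMSO cells, Cxcl12, the ligand of CXCR4, had 73.1 and 62.7 in AMN107 cells, against 24.9 and 31.02 in DMSO cells, and Il15 had 57.3 and 66.8 in AMN107 cells, against 26.02 and 26.7 in DMSO cells. In each the AMN107 arrays lay above the DMSO arrays, by 1.29, 0.88, 1.07 and 1.01 on the log2 scale. Ccl5 and Ccl8 fell (-0.26 and -0.46), and Ccl2, Ccl7, Cxcl1 and Tnf did not pass (adjusted p = 0.973, 0.74, 0.264 and 0.205). In the NF-kappaB pathway 4 of 22 genes rose and 4 fell, and with median centring 2 rose and 9 fell.

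**Figure D2:**
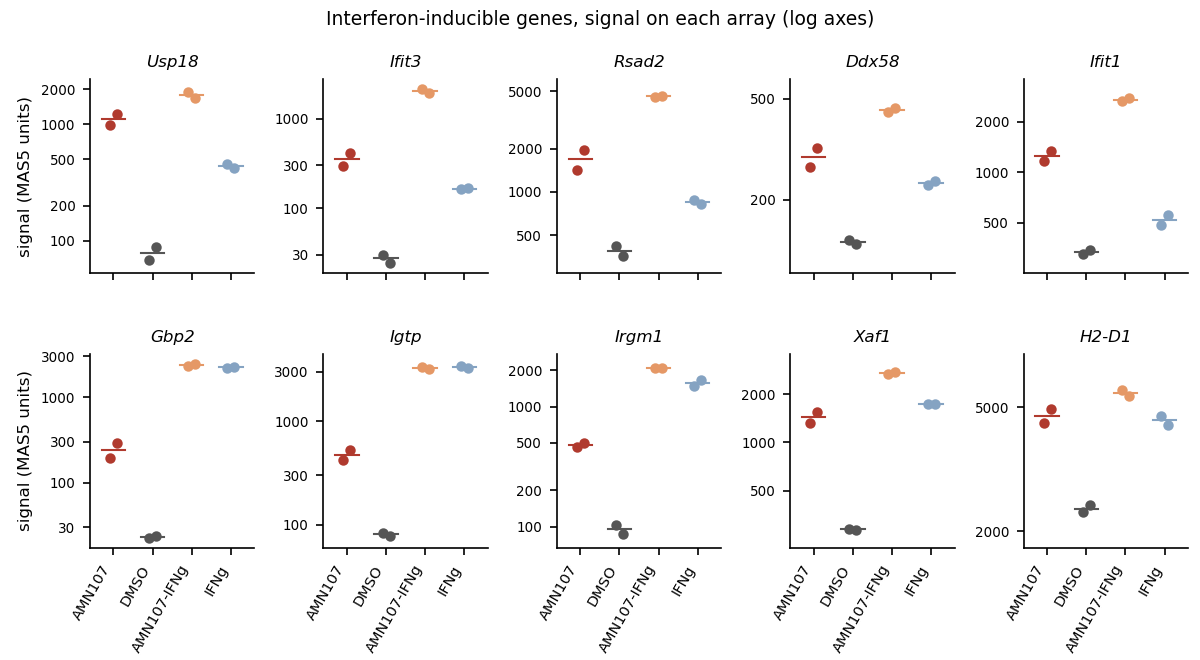
Signal on each array (MAS5 units, log axes) of 10 interferon-inducible genes in AMN107, DMSO, AMN107-IFNg and IFNg cells. Points are arrays and bars the means of 2. In every panel both AMN107 arrays lie above both DMSO arrays, and for Gbp2 and Igtp the AMN107-IFNg and IFNg arrays lie at about the same height.

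Genes of sterol synthesis fell together. Of the 20 tested genes of the mevalonate and sterol pathway 13 fell and 2 rose, with a median of -0.90 that lay between -0.85 and -1.08 under the other scalings. Hmgcs1, which makes HMG-CoA at the head of the pathway, had 449 and 459.5 in AMN107 cells, against 1499 and 1416 in DMSO cells. Idi1, which interconverts the 5-carbon isoprene units, had 249.8 and 291 in AMN107 cells, against 1376 and 1297 in DMSO cells, and Fdft1, or squalene synthase, the first step committed to sterols, had 316 and 318 in AMN107 cells, against 816 and 814 in DMSO cells. The AMN107 arrays were the low ones in all cases, with log2 differences of -1.66 (SE 0.09, adjusted p = 1.21e-06), -2.27 (SE 0.11, adjusted p = 6.37e-07) and -1.34 (SE 0.10, adjusted p = 1.32e-05). Other probe sets of Fdft1 gave -0.31, -0.22 and -0.39, so the size of its fall depends on the probe set, whereas those of Idi1 (-2.64) and Lss (-1.06 and -1.29) were near the value used.

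Further down the pathway, Lss, or lanosterol synthase, had 212 and 211 in AMN107 cells, against 535 and 509.8 in DMSO cells. Cyp51, which removes a methyl group from lanosterol, had 119 and 116 in AMN107 cells, against 321 and 287 in DMSO cells, and Hsd17b7, a ketone reductase of the pathway, had 159 and 153 in AMN107 cells, against 379.6 and 367 in DMSO cells. Each was lower on both AMN107 arrays, by log2 differences of -1.27, -1.31 and -1.21, though the other probe sets of Hsd17b7 gave -0.00, -0.61 and -0.52. Pmvk, Mvd, Dhcr7, Lbr, Sqle, Msmo1 and Nsdhl fell as well, with differences between -0.48 for Nsdhl and -1.21 for Pmvk. Fdps, which makes farnesyl diphosphate, had 527 and 491 in AMN107 cells, against 1775 and 1601 in DMSO cells, a difference of -1.71 that did not pass (SE 0.66, adjusted p = 0.0658), the spread in this test being pooled over all 6 groups, among which IFNa array 1 read 1789.9 and IFNa array 2 read 220.4 for it. Mvk, Ebp, Sc5d and Ggps1 did not pass either, at -0.15, -0.19, -0.16 and 0.35 (adjusted p = 0.524, 0.724, 0.224 and 0.0875). The 2 members that rose were Dhdds (0.42), which builds the precursor of dolichol, and Tm7sf2 (0.34), a late sterol reductase.

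The regulators of the pathway followed in part. Srebf2, which encodes SREBP2 and is itself one of its targets, had 109 and 107 in AMN107 cells, against 187 and 184 in DMSO cells, a difference of -0.73 (SE 0.09). Insig1, the sterol-bound anchor of the SREBP complex, had 155 and 151 in AMN107 cells, against 319 and 288 in DMSO cells, and the sterol carrier Stard4 had 166 and 171 in AMN107 cells, against 293 and 281 in DMSO cells. The AMN107 arrays were lower in each. Scarb1, the HDL receptor, and Abcg1, a sterol exporter driven by LXR, fell (differences -0.65 and -0.72), while Npc1, which moves cholesterol out of lysosomes, Vldlr, Insig2 and Mylip rose by 0.62, 0.57, 0.43 and 0.34. Srebf1 and Scap did not pass (-0.09 and 0.03, adjusted p = 0.505 and 0.863). Of 22 genes of fatty acid and triglyceride synthesis 7 fell and 1 rose. Scd2, a stearoyl-CoA desaturase, had 547 and 549 in AMN107 cells, against 1858 and 1626 in DMSO cells, its other probe sets giving -0.14 and -0.52, and Elovl6, which lengthens palmitate, had 286 and 281 in AMN107 cells, against 525 and 591 in DMSO cells. Scd1 and Dgat2 fell (differences -0.69 and -0.51), the malic enzyme Me1 rose by 0.58, and Fasn, Acly and Fads1 did not pass (adjusted p = 0.648, 0.0858 and 0.563).

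The promoter of Hmgcs1 is printed because it carries the core of the sterol regulatory element, TCACNCCAC, in capitals within 100 bases of RefSeq's GRCm38.p6 sequence (chr13:119690168-119690267, plus strand, 5′ to 3′ on the gene's strand).
Hmgcs1: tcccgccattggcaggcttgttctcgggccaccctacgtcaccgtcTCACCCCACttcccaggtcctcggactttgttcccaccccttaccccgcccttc
It was the only match among the 13 sterol synthesis genes past the test that have a window (7.69%). Among all 17 tested members with a window, past the test or not, the share was 5.88%. The lists of sterol uptake and of fatty acid synthesis were searched too and held no match. Over these lists together 1 of 48 tested genes with a window held the core (2.08%). Of the 9859 tested genes with a window 1.42% held the core on either strand, as did 1.24% of all windows.

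Genes under ATF4 rose. Of 53 tested genes of the amino acid response 35 rose and 2 fell, with a median of 0.50 and at least 0.33 under the other scalings. Atf4 had 4593 and 4241 in AMN107 cells, against 2755 and 2853 in DMSO cells, a log2 difference of 0.65 (SE 0.06), while its other probe sets gave -0.03 and 0.01. Aldh1l2, the mitochondrial formyltetrahydrofolate dehydrogenase, had 1436 and 1354 in AMN107 cells, against 300.5 and 262 in DMSO cells, and Cth, which makes cysteine from cystathionine, had 1334 and 1312 in AMN107 cells, against 254 and 261 in DMSO cells. These were the tallest rises of the list, 2.28 (SE 0.10, adjusted p = 6.33e-07) and 2.32 (SE 0.19, adjusted p = 2.02e-05).

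The factors Atf5 and Ddit3, or CHOP, act beside ATF4 in stressed cells, and their signals were 869.7 and 840.0 in AMN107 cells, against 285 and 305 in DMSO cells for Atf5 and 366 and 342 in AMN107 cells, against 167 and 148 in DMSO cells for Ddit3. Psph, the last step of serine synthesis, had 2289 and 2217 in AMN107 cells, against 929.9 and 882 in DMSO cells, and Slc3a2, the heavy chain shared by amino acid exchangers, had 1472 and 1493 in AMN107 cells, against 611 and 631 in DMSO cells. The arrays of the groups did not overlap for any of these, and the differences were 1.51, 1.13, 1.31 and 1.24. Asparagine synthetase Asns, the pseudokinase Trib3 and the phosphatase subunit Ppp1r15a, which restarts translation, rose by 0.68, 0.81 and 1.05. The serine enzymes Phgdh, Psat1 and Shmt2 rose by 0.45, 0.51 and 0.45. Of the 11 aminoacyl-tRNA synthetases on the list 10 rose, from 0.26 for Mars1 to 0.88 for Sars, and Iars differed by 0.18 (adjusted p = 0.107). Ddit4, an inhibitor of mTORC1, fell with 183 and 184 in AMN107 cells, against 325 and 268 in DMSO cells, as did the secreted hormone Stc2 (-0.49). Slc7a11, Sesn2 and Slc38a2 did not pass (adjusted p = 0.0949, 0.0511 and 0.366).

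Trib3, Got1 and Asns are printed as the 3 called genes of the list with the tallest rises whose promoters match TGATGNAA, the core of the C/EBP-ATF response element. The 100 bases, from RefSeq's GRCm38.p6, run 5′ to 3′ on the gene's strand with the match in capitals: Trib3 (chr2:152344011-152344110), Got1 (chr19:43524654-43524753) and Asns (chr6:7693179-7693278), all on the minus strand of the assembly.
Trib3: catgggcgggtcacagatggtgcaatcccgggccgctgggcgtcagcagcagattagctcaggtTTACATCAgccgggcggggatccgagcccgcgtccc
Got1: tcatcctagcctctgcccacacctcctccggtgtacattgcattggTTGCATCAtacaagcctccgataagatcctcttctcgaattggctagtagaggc
Asns: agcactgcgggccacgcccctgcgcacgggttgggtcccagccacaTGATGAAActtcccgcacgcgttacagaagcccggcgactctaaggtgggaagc
Of the 29 called genes of the list with a window, 9 held the core on either strand (31%), against 2.61% of the tested genes with a window and 3.97% of all windows. Their differences ran from 0.27 for Chac1 to 0.81 for Trib3, below the 2.32 of Cth, and among all 43 tested members with a window the share was 37.2%.

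Chaperones of the endoplasmic reticulum rose beside the ATF4 genes, 16 of 31 with 2 falling and a median of 0.28. Hsp90b1, or GRP94, had 2071 and 2207 in AMN107 cells, against 925 and 835 in DMSO cells, and the disulfide isomerases Pdia3 and Pdia6 had 1862 and 1966 in AMN107 cells, against 752 and 918 in DMSO cells for the first and 1176 and 1244 in AMN107 cells, against 542 and 573 in DMSO cells for the second. The AMN107 arrays were higher in each, by 1.27, 1.20 and 1.11, but the other probe set of Hsp90b1 gave 0.04. Hspa5, or BiP, a chaperone that rises in the unfolded protein response, rose by 0.18 (SE 0.06, adjusted p = 0.0304), and Xbp1, Calr, Pdia4, Manf and Sdf2l1 did not pass (adjusted p = 0.956, 0.483, 0.533, 0.468 and 0.216). Of 18 cytosolic heat shock genes 7 rose and 2 fell, among them Hspa1b and Hsp90aa1 (0.59 and 0.55) that rose and the small heat shock protein Cryab that fell, with 150.2 and 151 in AMN107 cells, against 329 and 290.3 in DMSO cells. The median of that list, 0.15, turns negative with median centring.

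**Figure D3:**
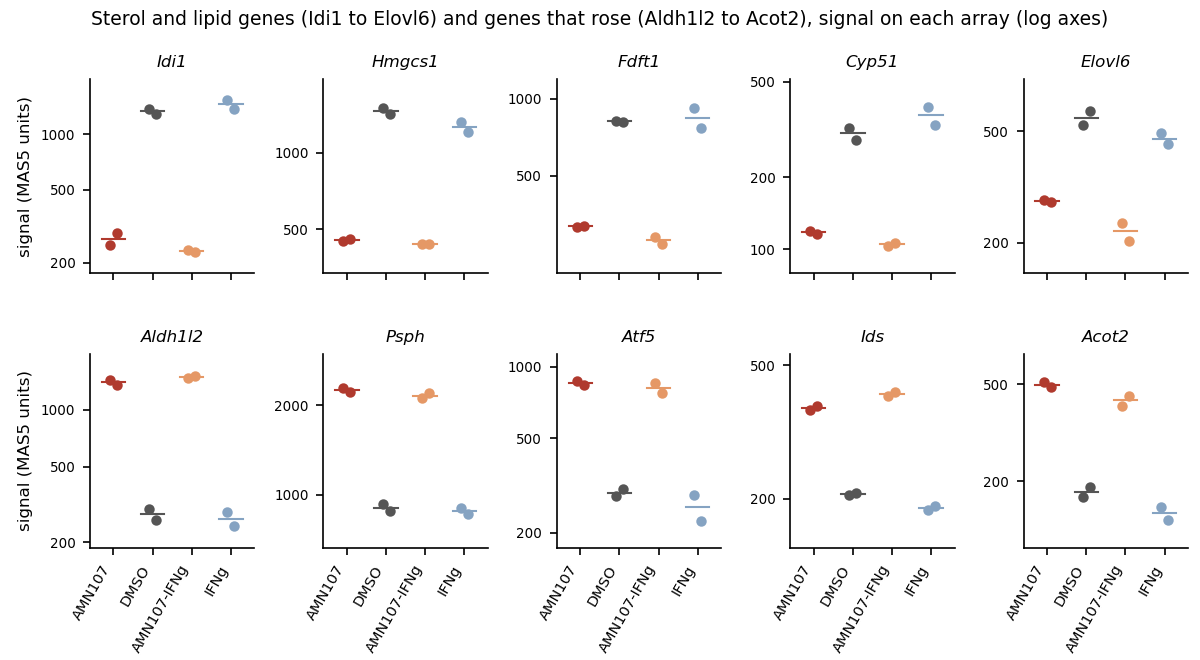
Signal on each array (MAS5 units, log axes) of 5 sterol and lipid genes and 5 genes that rose, in AMN107, DMSO, AMN107-IFNg and IFNg cells. Points are arrays and bars the means of 2. In the upper row the AMN107 and AMN107-IFNg arrays lie below the DMSO and IFNg arrays, and in the lower row above them, at similar heights with and without IFNg.

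Of 35 tested lysosomal enzymes and membrane proteins 16 rose and 2 fell, with a median of 0.29 and at least 0.11 under the other scalings. With median centring 13 rose and 9 fell. Lamp2, a coat protein of the lysosomal membrane, had 1209 and 1174 in AMN107 cells, against 639 and 617 in DMSO cells. The protective protein Ctsa had 554 and 565 in AMN107 cells, against 268 and 325 in DMSO cells, and Ids, which removes sulfate from heparan and dermatan sulfate, had 367 and 379 in AMN107 cells, against 205 and 207 in DMSO cells. Each was higher on both AMN107 arrays, by 0.91 (SE 0.21), 0.90 (SE 0.11) and 0.83 (SE 0.09). Psap, the precursor of the saposins, the proteases Ctsb and Ctsd and the calcium channel Mcoln1 rose by 0.69, 0.47, 0.52 and 0.54, and Scarb2 by 0.77. Ctsf and the GM2 activator Gm2a fell (-0.42 and -0.41), and Lamp1, Ctsl and Ctsk did not pass (adjusted p = 0.642, 0.101 and 0.101). In the proton pump that acidifies lysosomes 4 of 16 subunits rose and 12 did not pass, with a median of 0.17 that turns negative with median centring: Atp6v0d1 had 495 and 477 in AMN107 cells, against 156 and 161 in DMSO cells, and Tcirg1, Atp6v0a2 and Atp6v1h rose by 0.62, 0.45 and 0.82.

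Of 40 tested autophagy genes 14 rose and 4 fell, with a median of 0.19. With median centring 8 rose and 7 fell, with a median of 0.01. Sqstm1, or p62, the adaptor that carries ubiquitylated cargo, had 1550.3 and 1588 in AMN107 cells, against 479 and 490.4 in DMSO cells, and Map1lc3a, one of the LC3 genes, had 799 and 796 in AMN107 cells, against 524 and 519 in DMSO cells. These rose by 1.68 (SE 0.07) and 0.61 (SE 0.11) with no overlap of arrays. Calcoco1, Atg14, Atg16l1 and Wipi2 rose by 0.69, 0.69, 0.66 and 0.69, and Rragd, a RAG GTPase that recruits mTORC1 to lysosomes, by 0.58. The messages of the factors that drive these genes fell: Tfeb had 81.2 and 74.97 in AMN107 cells, against 105 and 105 in DMSO cells and Tfe3 had 189.6 and 179 in AMN107 cells, against 218 and 251 in DMSO cells, differences of -0.39 and -0.33. Becn1, Atg5 and Ulk1 did not pass (adjusted p = 0.781, 0.248 and 0.301).

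Atp6v0d1, Ctsa and Lgmn are shown because their promoters hold CACGTGAC, the core of the element bound by TFEB and TFE3, printed as before with the matches in capitals from RefSeq's GRCm38.p6, 5′ to 3′ on the gene's strand: Atp6v0d1 (chr8:105566016-105566115, minus), Ctsa (chr2:164833723-164833822, plus) and Lgmn (chr12:102439090-102439189, minus).
Atp6v0d1: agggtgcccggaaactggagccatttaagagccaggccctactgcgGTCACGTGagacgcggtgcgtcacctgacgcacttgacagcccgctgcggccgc
Ctsa: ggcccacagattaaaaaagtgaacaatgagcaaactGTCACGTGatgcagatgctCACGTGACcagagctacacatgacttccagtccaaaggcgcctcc
Lgmn: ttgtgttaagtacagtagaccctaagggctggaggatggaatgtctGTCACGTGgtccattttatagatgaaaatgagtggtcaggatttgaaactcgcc
Of 19 called lysosomal and pump genes with a window 7 held the core on either strand (36.8%), against 4.65% of the tested genes with a window and 2.25% of all windows. Of all 43 tested genes of the 2 lists with a window, called or not, 27.9% held it.

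Genes that respond to growth factors moved in both directions. Of 31 tested immediate early genes, the factors that serum switches on within minutes, 12 rose and 2 fell, with a median of 0.28. With median centring 10 rose and 8 fell. Klf6 had 743 and 741 in AMN107 cells, against 120.3 and 181 in DMSO cells and Ier2 had 682 and 676 in AMN107 cells, against 197 and 236 in DMSO cells. The AMN107 arrays lay above the DMSO arrays by 2.26 (SE 0.19) and 1.62 (SE 0.15), while 3 more probe sets of Klf6 gave 1.79, 0.26 and 0.51. Egr1, Jun and Fos rose by 1.02, 0.70 and 0.59, and Ier3 fell by 0.36 on the log2 scale. Junb, Nr4a1 and Myc did not pass (adjusted p = 0.989, 0.0917 and 0.0619). Among the feedback genes of the ERK pathway, 9 of 20 rose and 3 fell: Dusp4, a phosphatase of ERK, had 281 and 292 in AMN107 cells, against 123 and 153 in DMSO cells, and Dusp5, another, had 251 and 257 in AMN107 cells, against 122 and 148 in DMSO cells, while Spry1, an inhibitor of the pathway, fell with 31.3 and 34.1 in AMN107 cells, against 53.9 and 41.98 in DMSO cells. Hbegf, Etv5 and Spry2 rose by 0.84, 0.77 and 0.64. Of the targets of SRF and YAP 11 of 32 rose and 5 fell, with a median of 0.15 that turns to -0.02 with median centring. Csrp1 had 474 and 531 in AMN107 cells, against 99.5 and 127 in DMSO cells, Ankrd1 had 1068 and 1049 in AMN107 cells, against 300.2 and 348 in DMSO cells, and Filip1l, which fell, had 281 and 288 in AMN107 cells, against 497 and 498 in DMSO cells. Acta2, the smooth muscle actin, fell by 0.29 on the log2 scale and Ccn2 rose by 0.54, while Actb, Tagln and Ccn1 did not pass (adjusted p = 0.226, 0.0822 and 0.983).

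Of 14 tested kinases and enzymes that nilotinib binds beside ABL, 2 rose and 4 fell. Abl1 had 137 and 145 in AMN107 cells, against 163 and 173 in DMSO cells, a fall of 0.23 on the log2 scale (SE 0.08, adjusted p = 0.0444). The median gene lay between -0.16 and 0.07 over the 5 scalings, and the call on Abl1 was lost with centring over all probe sets (adjusted p = 0.116) and without any 1 of the 4 arrays. Abl2 had 490.1 and 449 in AMN107 cells, against 432 and 475 in DMSO cells and did not pass (adjusted p = 0.705), while its other probe sets differed by -0.02 and 1.43. Of 19 ABL kinases and partners 1 rose and 4 fell: the adaptor Nck1 rose with 183 and 176 in AMN107 cells, against 78.5 and 89.96 in DMSO cells (1.02, its other probe set giving -0.35), and the substrates Bcar1 (-0.43) and Cttn (-0.28), Abl1 and the ubiquitin ligase Cbl (-0.32) fell. Crk, Crkl, Abi1, Dok1 and Grb2 did not pass (adjusted p = 0.111, 0.676, 0.678, 0.269 and 0.212). Pdgfrb, the PDGF receptor of mesenchymal cells, had 28.4 and 40.2 in AMN107 cells, against 101 and 90.4 in DMSO cells, a difference of -1.29 (SE 0.17, adjusted p = 0.000414), but its other probe set differed by -0.04. Ddr1, a collagen receptor, had 128 and 119.8 in AMN107 cells, against 254 and 245 in DMSO cells (difference -0.96, SE 0.09), with other probe sets between -0.01 and -0.87. The kinase Map3k20 had 194 and 178 in AMN107 cells, against 278 and 276 in DMSO cells. The quinone reductase Nqo2, an off-target that binds the drug, rose by 0.45, and the SRC family kinase Fyn rose with 167 and 165 in AMN107 cells, against 94.0 and 88.4 in DMSO cells. Pdgfra, Ddr2, Mapk14 and Epha2 did not pass (adjusted p = 0.396, 0.0731, 0.389 and 0.933), and both probe sets of Kit were under the array medians.

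Of 17 tested collagen chains 5 fell and 2 rose, with a median of -0.12 that stayed negative under the other scalings. Col3a1, the chain of type III collagen, had 107 and 117 in AMN107 cells, against 617 and 567 in DMSO cells, a difference of -2.31 (SE 0.14, adjusted p = 3.36e-06), the largest fall among the genes tested, and its other probe set gave -1.14. Col8a1 had 540.1 and 551 in AMN107 cells, against 871 and 836 in DMSO cells and Col5a2, which rose, had 920.0 and 914 in AMN107 cells, against 669 and 675 in DMSO cells. The groups did not overlap for any of the 3. Col1a1 fell by 0.41 on the log2 scale (adjusted p = 0.0458), and Col1a2 did not pass (adjusted p = 0.122). Of 32 genes of collagen processing and other matrix, whose median of -0.05 turns to 0.01 with centring over all probe sets, 8 fell, with Bgn at 513 and 483 in AMN107 cells, against 783 and 774 in DMSO cells and Pcolce at 1122 and 1181 in AMN107 cells, against 1706 and 1665 in DMSO cells, and 3 rose, with Fn1 at 604 and 592 in AMN107 cells, against 388 and 366 in DMSO cells. Timp2, an inhibitor of matrix proteases, fell with 864 and 868 in AMN107 cells, against 1374 and 1409 in DMSO cells. Of 7 tested S100 calcium-binding proteins 4 fell and 3 did not pass: S100a4, a marker of motile fibroblasts, had 2255 and 2173 in AMN107 cells, against 5168 and 5193 in DMSO cells, and S100a10, S100a13 and S100a6 fell by 0.41, 0.41 and 0.17 on the log2 scale. Jag1, a Notch ligand, rose with 89.2 and 95.5 in AMN107 cells, against 31.5 and 42.2 in DMSO cells, Pmepa1, which restrains TGF-beta signals, rose with 135 and 125 in AMN107 cells, against 45.5 and 51.1 in DMSO cells, and Nrp1, a co-receptor of VEGF and semaphorins, fell with 69.8 and 75.8 in AMN107 cells, against 201 and 158 in DMSO cells. Id2, a target of BMP signals, fell with 254 and 246 in AMN107 cells, against 474 and 428 in DMSO cells.

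Of 49 genes of the G1/S transition and DNA replication 9 rose and 11 fell, and of 41 mitosis genes 3 rose and 7 fell. With median centring 4 rose and 20 fell on the first list, and 2 rose and 16 fell on the second. Rrm2, which makes deoxynucleotides, had 2001 and 1956 in AMN107 cells, against 3148 and 3039 in DMSO cells and fell, and the kinase Cdk4 had 1875 and 1822 in AMN107 cells, against 1104 and 1234 in DMSO cells and rose. Ccnd1 rose by 0.27 (adjusted p = 0.0363). Among the p53 targets 5 of 28 rose and 5 fell. Ccng1 had 207 and 204 in AMN107 cells, against 488 and 436 in DMSO cells and Cdkn1a had 374 and 397 in AMN107 cells, against 521 and 547 in DMSO cells, lower on both AMN107 arrays, whereas Gadd45a, which is also an ATF4 target, had 327 and 297 in AMN107 cells, against 104 and 87.8 in DMSO cells, higher on both. Of 32 hypoxia and glycolysis genes 8 fell and 2 rose, with Egln3 at 58.9 and 62.4 in AMN107 cells, against 143 and 115 in DMSO cells and the glucose transporter Slc2a1 at 480.1 and 554 in AMN107 cells, against 919.6 and 747 in DMSO cells. Txnip, which binds thioredoxin and curbs glucose uptake, had 26.4 and 22.9 in AMN107 cells, against 88.8 and 94.2 in DMSO cells, a difference of -1.59 (SE 0.11), its other probe set giving -0.18.

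Of 35 NRF2 and xenobiotic genes 9 rose and 4 fell: Hmox1, which breaks down haem, had 251 and 311 in AMN107 cells, against 93.8 and 94.1 in DMSO cells, while Cyp1b1, a target of the aryl hydrocarbon receptor, had 17.8 and 12.96 in AMN107 cells, against 34.1 and 38.4 in DMSO cells and Nqo1 fell by 0.49 on the log2 scale. Nfe2l2 itself did not pass (adjusted p = 0.536). With median centring 8 genes of this list rose and 11 fell, and in the respiratory chain, given next as deposited, 9 rose and 16 fell. The respiratory chain had 14 of 62 genes higher and 9 lower, the proteasome 6 of 31 higher and 7 lower, and the cytosolic ribosomal proteins 1 of 37 higher and 6 lower. With median centring the proteasome had 2 higher and 9 lower, and the ribosomal proteins 1 higher and 23 lower. The ribosomal counts were 1 and 17 with 1 shared trimmed mean, and 1 and 6 with quantile normalization. In the clock list 3 of 16 rose and 2 fell, and Nr1d2, or REV-ERB beta, had 477 and 526 in AMN107 cells, against 201 and 224 in DMSO cells. Acot2, a mitochondrial acyl-CoA thioesterase under PPAR alpha, had 511 and 486 in AMN107 cells, against 173 and 189.9 in DMSO cells, and Fabp4, a fatty acid carrier under PPAR gamma, had 67.9 and 69.02 in AMN107 cells, against 30.6 and 34.5 in DMSO cells. Both were higher on the 2 AMN107 arrays, by 1.42 and 0.91, with another probe set of Acot2 giving 0.34.

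**Figure D4:**
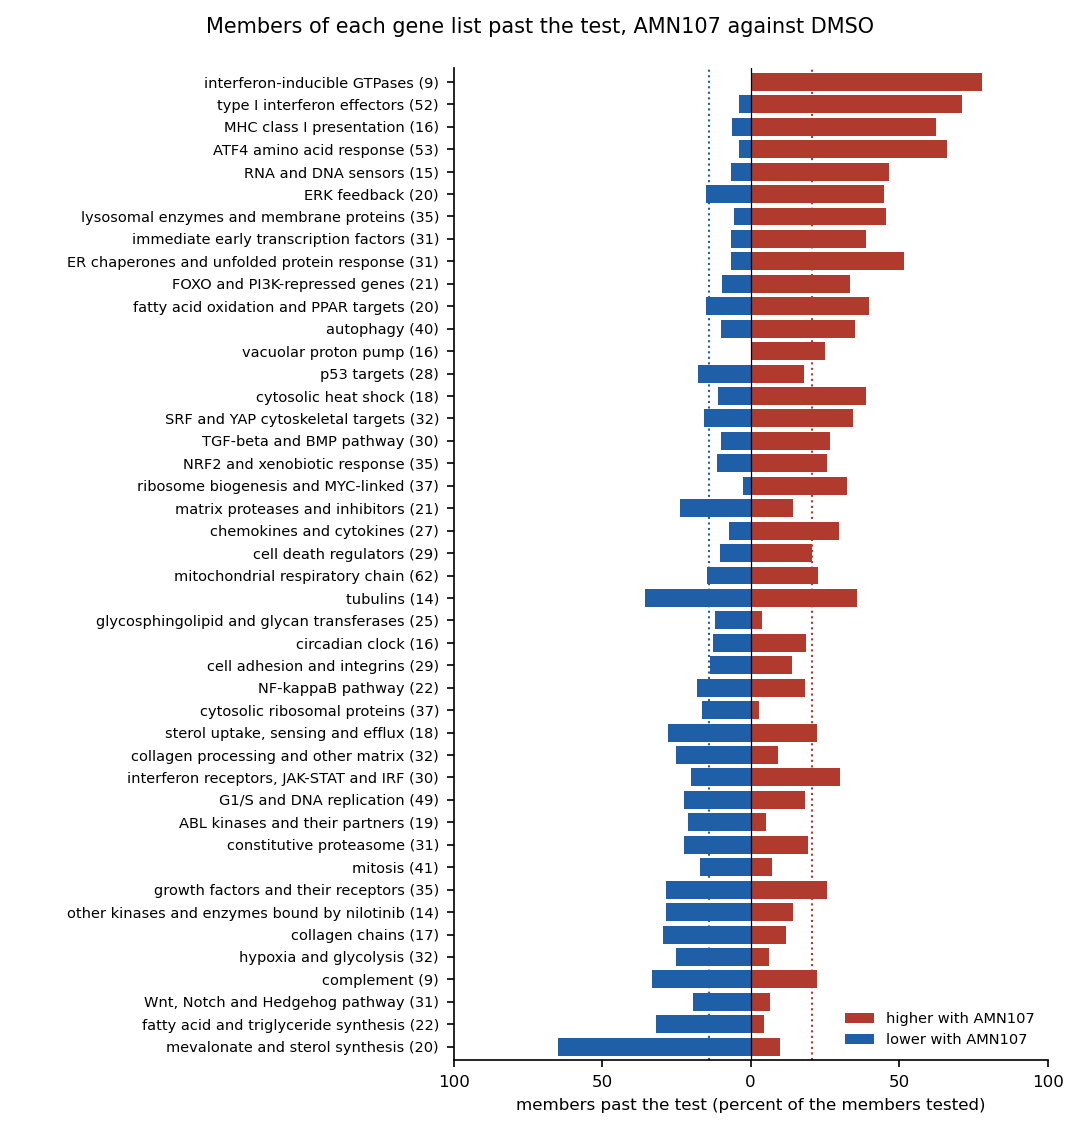
Percent of the tested members of each gene list that were past the test, higher with AMN107 to the right and lower to the left, with the number tested in brackets and lists in the order of their median difference. Dotted lines give the shares over all genes tested, 20.7% and 14%. Of the pathway lists drawn, the interferon-inducible GTPases (7 of 9 members), the type I interferon effectors (37 of 52) and the ATF4 response (35 of 53) reach farthest to the right, and sterol synthesis (13 of 20) farthest to the left. Lists of cell type markers are not drawn.

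Of the 300 genes past 2-fold 207 are on none of the lists. The tallest rise outside the interferon lists was that of B4galnt2, from the list of glycan transferases. This enzyme, which adds the last sugar of the Sda blood group antigen, had 347 and 347 in AMN107 cells, against 42.7 and 35.8 in DMSO cells, a difference of 2.90 (SE 0.14), and its 2 other probe sets gave 0.71 and 0.89. Iah1, an isoamyl acetate esterase homologue, had 1425 and 1537 in AMN107 cells, against 279.8 and 296 in DMSO cells, the other probe sets giving -0.21 and 1.96. Car6, a secreted carbonic anhydrase, had 90.7 and 92.9 in AMN107 cells, against 14.9 and 14.6 in DMSO cells, with both DMSO arrays under the array medians. All were higher in AMN107 cells without overlap. Dus4l, of the dihydrouridine synthase family, had 142 and 116 in AMN107 cells, against 19.6 and 23.4 in DMSO cells, with 1 other probe set at -0.28, and Ifi202b, of the p200 family, had 2966 and 3128 in AMN107 cells, against 679.6 and 711 in DMSO cells. Among the falls, Cldn9, a tight junction claudin, had 45.9 and 54.5 in AMN107 cells, against 164 and 178 in DMSO cells, but another probe set differed by 0.12. Sbsn, or suprabasin, had 299 and 326 in AMN107 cells, against 822 and 783 in DMSO cells, the mitochondrial carbonic anhydrase Car5b had 90.9 and 87.7 in AMN107 cells, against 228 and 240.5 in DMSO cells, and the amino acid carrier Slc38a4 had 164 and 158 in AMN107 cells, against 403 and 364 in DMSO cells. Both AMN107 arrays were the low ones, with differences of -1.34, -1.31 and -1.21. Of the 143 genes past 2-fold with another tested probe set, 35 had at least 1 of opposite sign. Of the genes named, at any size, 148 have another tested probe set, and for 58 at least 1 differed by over 1 on the log2 scale from the value used, or had the opposite sign and differed by over 0.5. Those past the test with such a probe set of opposite sign were 25: Atf4, Atp6v0a2, Canx, Cbl, Cldn9, Col8a1, Cryab, Ctsa, Cttn, Dus4l, H2-D1, Hspa5, Iah1, Ids, Ifngr2, Insig2, Map3k20, Msmo1, Nck1, Pcolce, Rrm2, S100a10, Slc2a1, Spry2 and Timp2. With the mean over a gene's probe sets in place of the brightest, the signs of Canx (0.19), Cttn (0.30), Hspa5 (-0.0037) and Insig2 (-0.18) turned.

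The same drug contrast in IFNg-treated cells used 4 other arrays. AMN107-IFNg against IFNg gave 171 genes past 2-fold (1.4% of the genes tested), 132 higher and 39 lower. At any size 1632 genes rose (13.4% of the genes tested) and 702 fell (5.76% of the genes tested). Of the 300 genes of the AMN107 and DMSO comparison, 103 were past 2-fold in the same direction there (34.3% of the 300 and 60.2% of the 171), and the rest of the 300 were not past 2-fold there. Among the 36 falls, 34 were also past the test and lower with IFNg, against 172 of the 264 rises that were also higher.

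Sterol synthesis was also lower with AMN107 in the presence of IFNg. All 13 genes that fell without it also fell with it, and 2 more did. Idi1 had 234 and 229.6 in AMN107-IFNg cells, against 1533 and 1371 in IFNg cells, a difference of -2.60 (SE 0.11), and Fdft1 had 289 and 271 in AMN107-IFNg cells, against 917 and 771 in IFNg cells, a difference of -1.56. Fdps had 483 and 491 in AMN107-IFNg cells, against 1825 and 1472 in IFNg cells, and again did not pass (difference -1.73, adjusted p = 0.0931). The groups did not overlap for any of these 3 genes. For Aldh1l2 the signals were 1467 and 1510.0 in AMN107-IFNg cells, against 288 and 243 in IFNg cells, and for Psph 2116 and 2196 in AMN107-IFNg cells, against 904 and 862 in IFNg cells, differences of 2.45 and 1.28. Of the 35 ATF4 genes that rose without interferon 27 also rose with it. B4galnt2, Iah1 and Col3a1 differed by 2.99, 2.73 and -1.94 there. Phyh, which starts the breakdown of phytanic acid, and Serpinf1, or PEDF, differed by 1.74 and 1.75 without and 1.63 and 1.35 with IFNg, and were named after their values were seen.

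Of the 37 type I effectors that rose with AMN107 alone 33 also rose with AMN107 in the presence of IFNg: Ifit3 had 2125 and 1953 in AMN107-IFNg cells, against 162 and 166 in IFNg cells, a difference of 3.57 (SE 0.15), and Rsad2 had 4589 and 4681 in AMN107-IFNg cells, against 886 and 829 in IFNg cells, a difference of 2.42. The 7 GTPases that rose with AMN107 alone did not pass the test with IFNg: Gbp2 had 2291 and 2452 in AMN107-IFNg cells, against 2224 and 2286 in IFNg cells, Igtp had 3294 and 3194 in AMN107-IFNg cells, against 3399 and 3238 in IFNg cells and Irgm2 had 896 and 922 in AMN107-IFNg cells, against 1001 and 887 in IFNg cells. The arrays overlapped between the groups for Igtp and Irgm2 and nearly so for Gbp2, with differences of 0.07, -0.03 and -0.05 (adjusted p = 0.767, 0.855 and 0.796). The difference between the 2 contrasts, tested as the interaction of drug and IFNg, passed for 125 genes (1.03% of the genes tested), 16 positive and 109 negative. Of the 109, 99 had risen with AMN107 alone, against 20.7% of the genes tested. The interaction subtracts the difference AMN107 minus DMSO on the same arrays, so a rise there by itself favours a negative value. On the interferon lists are 18 of the 99, with Gbp2 at -2.89 (SE 0.20, adjusted p = 0.000215) and Igtp at -2.46 (SE 0.14, adjusted p = 5.76e-05). Gbp6 and Iigp1 fell with IFNg, by 0.57 and 0.86 on the log2 scale. The interaction count rests on single arrays: it was between 11 and 45 without any 1 of the 8 arrays compared, and 1576 without IFNa array 2.

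**Figure D5:**
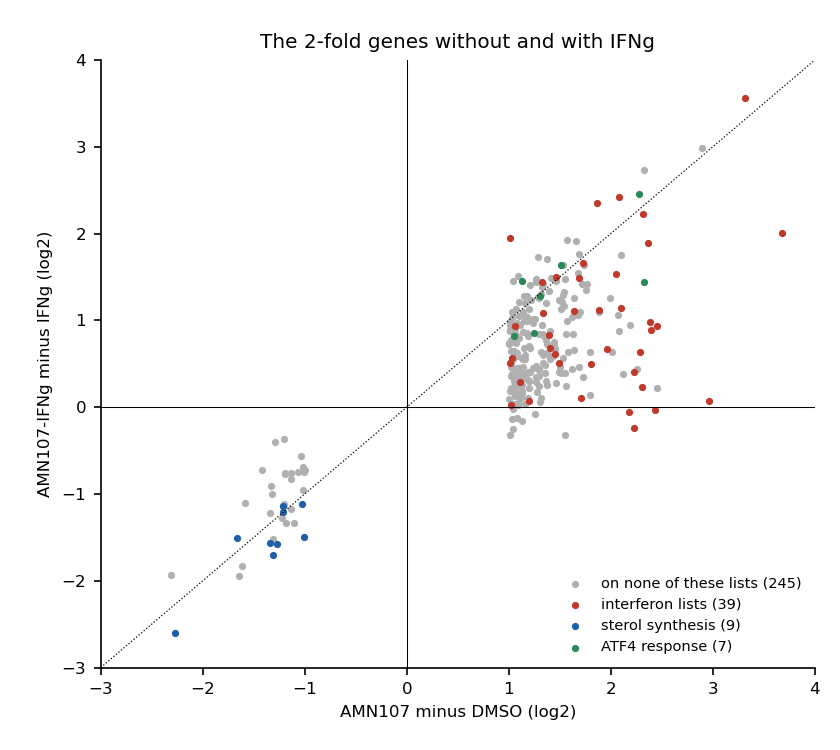
Each point is 1 of the 300 genes past 2-fold in AMN107 against DMSO, with its log2 difference there on the horizontal axis and in AMN107-IFNg against IFNg on the vertical axis, and the dotted line marks equal differences. All 36 falls lie in the lower left of the plot, 8 of the 39 interferon rises lie within 0.25 of 0 on the vertical axis, and 199 of the 225 other rises lie below the dotted line. The genes were picked by their size on the horizontal axis, a choice that by itself favours smaller differences on the vertical axis.

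Outside the interferon lists, the 225 rises past 2-fold had a median of 1.20 in AMN107 against DMSO and of 0.65 in AMN107-IFNg against IFNg, and 146 of them were past the test and higher in both. They were chosen by size in the first contrast, which by itself favours a smaller median in the second. On the same scale the IFNg arrays exceeded the same 2 DMSO arrays by a median of 0.61 for these genes, against -0.03 for all genes tested, and IFNa array 1 by 0.26, against 0.07. These comparisons share the DMSO arrays, so a low DMSO value raises all of them. Genes that IFNg itself raises can also stand among the 225. Ifi202b, of the p200 family, was 2.48 higher on the IFNg arrays than on the DMSO arrays. The part of such genes in these medians was not tested. Klf6, for example, had 761 and 777 in AMN107-IFNg cells, against 572 and 558 in IFNg cells, and Hsp90b1 had 1939 and 2140.5 in AMN107-IFNg cells, against 1759 and 1839.8 in IFNg cells, differences of 0.44 and 0.18 that did not pass (adjusted p = 0.126 and 0.575). Srp72, of the signal recognition particle and named after its values were seen, had 1187 and 1200.3 in AMN107 cells, against 309 and 366 in DMSO cells, while it had 1079 and 1060.2 in AMN107-IFNg cells, against 982 and 965 in IFNg cells. In AMN107 against DMSO the probe set used for Srp72 gave 1.80 and another gave 0.47. The 36 falls had medians of -1.21 in AMN107 against DMSO, -1.13 in AMN107-IFNg against IFNg and -0.12 in IFNg against DMSO. Both IFNg arrays lay above both DMSO arrays for 185 of the 225 rises (82.2%), against 27.5% of all genes tested, and below them for 18 of the 36 falls (50%), against 35.8% of all genes tested. The part that the DMSO arrays' different spike and 5′ to 3′ readings play in these rises was not tested. Of the genes that rose with AMN107 alone, 8 of 16 ER chaperones, 7 of 16 lysosomal genes and 3 of 12 immediate early genes were also past the test and higher with AMN107 in the presence of IFNg. Of all genes tested 13.4% were higher there. The share among all genes that rose with AMN107 alone was not counted, so these counts are not called high or low.

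The fibroblast markers were present and those of other cells were mostly dim. Vim, the intermediate filament of mesenchymal cells, had 3764 and 3862 in AMN107 cells, against 2823 and 2786 in DMSO cells (difference 0.44, not past the test, adjusted p = 0.0506). Of the 10 tested fibroblast markers 3 rose, 3 fell and 4 did not pass. Their summed signal was 7753 and 7754 in AMN107 cells, against 9451 and 9500 in DMSO cells. S100a4 and Pdgfrb were the members that fell most. S100a4 alone had 2255 and 2173 in AMN107 cells, against 5168 and 5193 in DMSO cells, a larger fall than that of the sum. Of 12 macrophage and leukocyte markers 6 were bright enough to test, 2 fell and 4 did not pass, and their sums were 342 to 344 in AMN107 cells, against 340.3 to 353 in DMSO cells. Of 9 endothelial markers 2 were tested and 1 fell, of 10 epithelial markers 4 were tested and 3 fell, and of 10 muscle markers 6 were tested and 2 fell. Of 9 fat and cartilage markers 3 were tested, Fabp4 and Sox9 rose and 1 did not pass. Of 9 neural ones 6 were tested, Tubb3 and Map2 rose and 4 did not pass. The median of the neural list was -0.05, and with median centring 2 rose and 3 fell. Tubb3 had 78.5 and 86.7 in AMN107 cells, against 25.1 and 32.5 in DMSO cells. In RNA from whole cultures, fewer cells of a type and less RNA per cell cannot be told apart, and the part of any minor cell type in these results was not tested.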

How the data were processed

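RNA of 12 mouse embryonic fibroblast samples, 6 groups of 2, was measured on Affymetrix expression arrays. The deposited values are linear probe set intensities made with MAS5, per the submitters' processing notes; its version, settings and scaling are not given in the sources used here, nor is a genome build. Probe sets were named through GEO's platform annotation: 64 controls, 932 probe sets with several genes and 9160 with none were left out, and each of 18193 genes was read from its brightest probe set.

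A gene was tested where its signal exceeded the array median on at least 2 of 12 arrays. The log2 of the intensity plus a pseudocount (the mean of the arrays' 25th percentiles) was fitted with limma 3.58.1 in R 4.3.3, with a mean for each of the 6 groups and 1 spread per gene over all 12 arrays, and moderated tests were adjusted by Benjamini-Hochberg over all 12192 genes. Precision is limited by there being 2 arrays a group. The procedure was tested on simulated data.

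The members and gene lists were chosen with earlier results of these data known. The genes named are the 25 largest rises and 20 largest falls without overlap, up to 6 members per list with the largest differences past the test and those against the trend, every member of short or kinase lists, the 8 most positive and negative interactions, and genes fixed by name; of those that the text names, 85 lie outside this rule and were chosen after their values were seen. Some genes that the rule names are not reported here. Sequences come from RefSeq's promoter windows. Alternatives were the pseudocount, the filter, the scaling, the mean of a gene's probe sets, array weights, only the groups compared, a replicate block and leaving out each array.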

Additional observations from a re-analysis of the deposited data

Results flagged for a closer look

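The AMN107 contrast differed between cells without interferon and cells with IFNg for 32 of the genes named above. The call was by limma's interaction test with an adjusted p under 0.05. Each value is the log2 difference AMN107-IFNg minus IFNg less the log2 difference AMN107 minus DMSO. Among the GTPases it was -2.89 for Gbp2, -2.07 for Gbp3, -0.78 for Gbp6, -2.46 for Gbp7, -2.46 for Igtp, -1.15 for Iigp1, -1.82 for Irgm1, -2.22 for Irgm2 and -1.60 for Ifi47. Among other interferon genes it was -1.68 for Usp18, -1.40 for Oasl2, -1.52 for Parp12, -1.31 for Parp9, -0.72 for Trim21, -1.65 for Xaf1, -1.499 for Mndal, -1.73 for Ifi202b, -0.69 for H2-D1 and -0.82 for H2-K1. Mx1 and Ifi44l had positive values of 1.53 and 1.64: both were dim in AMN107, DMSO and IFNg cells, and Mx1 read 70.4 and 53.4 in AMN107-IFNg cells, against 9.11 and 14.5 in IFNg cells.

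Among the remaining genes it was -1.22 for Ankrd1, -1.20 for Csrp1, -0.81 for Ctsa, -1.25 for Dus4l, -1.18 for Ier2, -1.82 for Klf6, -0.67 for Nck1, -1.12 for Pdia3, -0.78 for Pdia6 and -0.62 for Sqstm1, genes that rose with AMN107 alone. For Sc5d, a late enzyme of sterol synthesis, it was -0.77, the gene falling by 0.93 on the log2 scale with IFNg present.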

How the results depend on the processing

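The 300 genes past 2-fold in AMN107 against DMSO numbered 228 to 399 under the other settings tried and 266 to 355 without 1 array. The 4237 genes at any size became 6910 with array weights, 6760 with only the groups compared and 6713 without both IFNa arrays, and 1969 to 6714 without 1 array. List members past the test (532) numbered 321 to 772 without 1 array, and were 335 without AMN107 array 2 and 321 without DMSO array 1. The 171 genes past 2-fold in AMN107-IFNg against IFNg and the 103 shared ones ranged from 123 to 230 and from 77 to 143. The 125 interactions became 1462 with array weights, 1564 with only the groups compared, 80 with quantile normalization, 1579 without both IFNa arrays and 11 to 1576 without 1 array. Of the genes named, 51 lost their call without 1 array, 43 of them without DMSO array 1, 40 without AMN107 array 2 and 36 each without AMN107 array 1 or DMSO array 2. With the mean over a gene's probe sets the sign turned for Canx (0.19), Ccn1 (-0.62), Cttn (0.30), Hspa5 (-0.0037) and Insig2 (-0.18), and 17 genes lost their call. The cause of these shifts was not tested.

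With the replicate number as a replicate block the counts were 4289, 302, 543, 171, 103 and 110, and 2 named genes lost their call. Deviations of AMN107 and DMSO arrays of the same number correlated at -0.01, and those of the 15 pairs of groups at -0.14 to 0.31, not all above 0.1, and the labels tie no number to a shared batch, so the numbers were not taken to pair the arrays. With 2 arrays a group, 1 array can make or end a call, and genes near the array median have little signal over background.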
